A study of Mus musculus with 6 samples.

Results

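The genes described here encode the nuclear part of the mitochondrial respiratory chain, complexes I to V, in cells sorted as macrophages from the mouse stomach corpus. They were taken by symbol: every gene of the expression table whose symbol begins with Nduf, Uqcr or Atp5, or with Cox followed by 4, 5, 6, 7 or 8, together with Sdha, Sdhb, Sdhc, Sdhd, Cyc1 and Cycs. This gave 94 of 23049 genes. By complex they were 36 subunits of complex I, 6 complex I assembly factors of the Ndufaf series, 4 subunits of complex II, 9 of complex III, 19 genes of complex IV and 15 of complex V. The other 5 were Cycs, Cox7a2l, which links complexes III and IV into supercomplexes, and Atp5s, Atp5sl and Atp5l-ps1, which are not subunits of the ATP synthase.

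The study compared 2 groups of 3 libraries. In the first the animals received L635, and in the second DMP-777. Both compounds are known to remove acid-secreting parietal cells from the mouse stomach; DMP-777 also inhibits neutrophil elastase, and L635 is its analog without that activity. From each stomach corpus, F4/80-positive cells were sorted by flow cytometry after a short digestion with dispase, and their amplified RNA was sequenced. The sources used here do not give strain, age, sex, dose, length of treatment or the number of animals behind a library, so p-values measure the spread between these libraries, which may be in part technical. No library from untreated animals was analysed here, so that a difference is between the 2 compounds and not between either compound and a normal stomach.

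Respiratory chain complexes pass electrons from NADH, through complex I, and from succinate, through complex II, to coenzyme Q, then through complex III and cytochrome c to complex IV, where oxygen is reduced. Complexes I, III and IV pump protons as they do so, and complex V, the ATP synthase, uses the returning protons to make ATP. Macrophages are known to change their use of this chain with their activation state, and parietal cells are among the cells richest in mitochondria.

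Levels are given as RPKM, a read count corrected for the length of the gene and the depth of the library, and the table sets every lower value to a floor of 1. Differences are log2 fold changes of L635 over DMP-777 on log2(RPKM + 1), so a negative value means a lower level after L635, and they are given with their standard error from limma and with p-values adjusted over all genes tested. A gene was tested if it was above the floor in at least 3 of the 6 libraries, which held for 87 of the 94 respiratory chain genes and for 12102 genes in all.

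Of the 87 tested genes, 86 had a lower mean log2 level after L635 than after DMP-777, and Ndufs1 was the exception; with quantile normalization 76 did. Their median log2 fold change was -0.73, with a range from -1.88 to 0.09, against a median of 0.00 over all tested genes, of which 49.8% were negative. No respiratory chain gene, and no gene of the whole table, passed an adjusted p of 0.05 in limma, where the lowest was 0.308. At an unadjusted limma p below 0.05, 40 of the 87 were lower after L635 and 0 were higher, where the background over all tested genes was 6.33% lower and 3.78% higher. The L635 libraries all lay below the DMP-777 libraries for 31 of the 87, where the background was 8.75%, and the reverse held for 0, where it was 7.25%. Among genes with a mean of at least 20 RPKM, the L635 libraries all lay below for 37.8% of respiratory chain genes and 23.2% of all tested genes. By complex this held for 18 of 36 genes of I, 1 of 4 of II, 4 of 9 of III and 4 of 15 of V. For complex IV it held for 2 of 13, or 15.4%, which was below that share of 23.2%. The count of 40 lower genes depended on a pair of libraries: without L635 replicate 3 and DMP-777 replicate 2 together, it was 7 of the 87 and the median was -0.27, and of all tested genes 259 were lower, or 2.14%, against 766 with every library. With libraries scaled to equal summed RPKM, the median of all tested genes was 0.24, with 352 lower and 1043 higher at that threshold in place of 766 and 457, and the respiratory chain genes had a median of -0.46 with 21 lower. With quantile normalization their median was -0.37, and 21 of them and 4.88% of all tested genes were lower; the medians by complex were then -0.51 for complex I, -0.42 for II, -0.32 for III, -0.27 for IV and -0.28 for V.

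**Figure D1:**
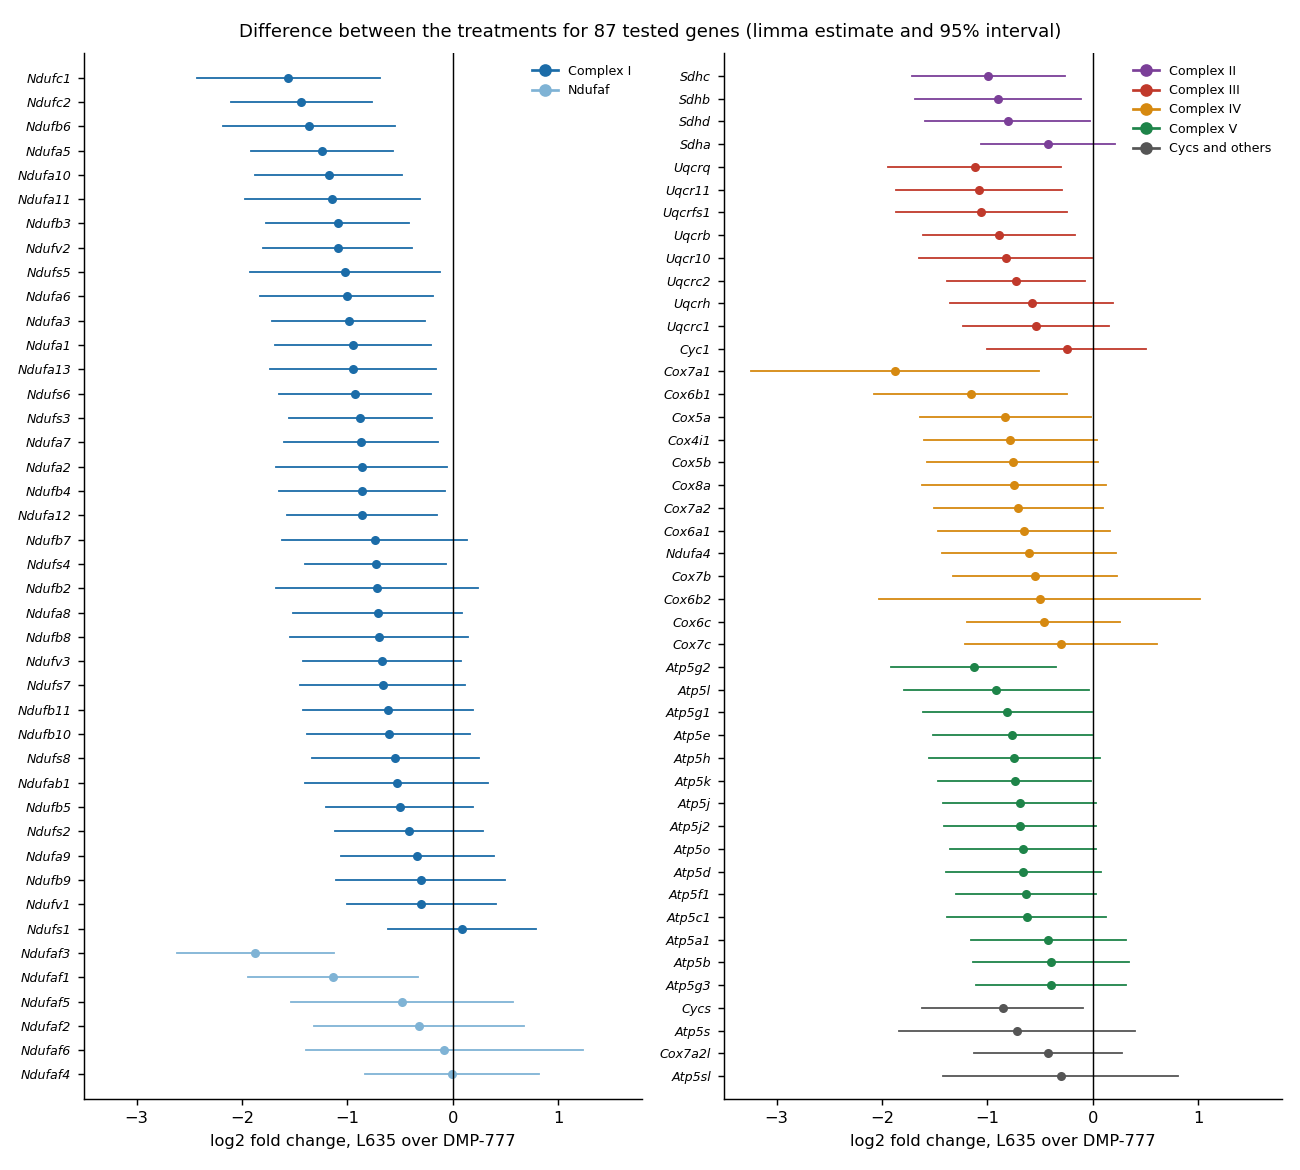
Log2 fold change of L635 over DMP-777 for each of the 87 tested respiratory chain genes, with its 95% interval from limma, coloured by complex. The points lie left of 0 for 86 genes, and Ndufs1 lies at 0.09.

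Most of the 87 genes shared their highest and their lowest library. DMP-777 replicate 2 held the highest value for 81 of the 87 genes, and L635 replicate 3 the lowest for 68, while over all tested genes DMP-777 replicate 2 was highest for 22.0% and L635 replicate 3 lowest for 14.9%. L635 replicate 2 held the lowest value for 14 more. The summed RPKM of the whole table was also highest in DMP-777 replicate 2, at 295675, and lowest in L635 replicate 3, at 204413. Enzymes of the citric acid cycle and mitochondrial carriers, listed below, had the same extremes. Their sums were 1595 and 1594 RPKM in DMP-777 replicate 2, and 725 and 638 RPKM in L635 replicate 3. The median over the 87 genes was 58.7, 46.2 and 37.3 RPKM in L635 replicates 1 to 3, against 74.8, 126 and 64.9 RPKM in DMP-777 replicates 1 to 3. The groups of medians did not overlap, but the gap was narrow between L635 replicate 1 and DMP-777 replicate 3, and 46 of the 87 genes were higher in that L635 library than in that DMP-777 library. All 94 genes together held 2.71%, 2.61% and 1.90% of the summed RPKM of the L635 libraries, against 3.34%, 4.35% and 2.56% in the DMP-777 libraries.

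**Figure D2:**
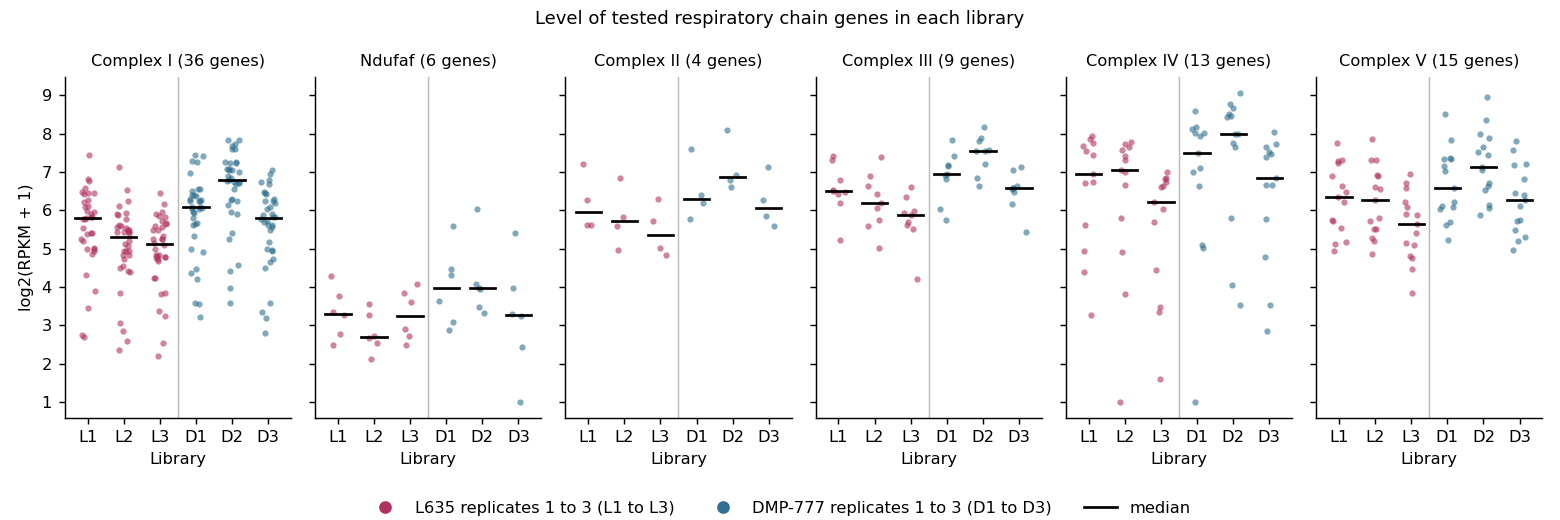
Level of each tested gene as log2(RPKM + 1), by complex, in the 3 L635 libraries (L1 to L3) and the 3 DMP-777 libraries (D1 to D3), with 1 point per gene and a bar at the median. D2 has the highest median for each of complexes I to V and L3 the lowest, and the medians of the Ndufaf assembly factors lie below those of each complex.

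Markers of other stomach cells were present in every library, and some lists had the same highest and lowest library. In a bulk sample, fewer cells of a type and less RNA per cell cannot be told apart. Of 9 parietal cell markers, 8 were tested, 7 of these had a negative log2 fold change, and Slc26a7 lay at the floor throughout. Their summed level was 834, 540 and 232 RPKM in the L635 libraries, against 780, 1321 and 507 RPKM in the DMP-777 libraries, so DMP-777 replicate 2 was highest and L635 replicate 3 lowest here too. Atp4a and Atp4b, the 2 subunits of the gastric proton pump, were above the floor in all 6. Of 12 general epithelial markers, 9 were tested and 7 were lower, with Cldn4 at the floor and summed levels of 664 to 897 RPKM after L635 against 822 to 1243 RPKM after DMP-777. These sums were again highest in DMP-777 replicate 2 and lowest in L635 replicate 3. Surface mucous cell markers were lower for 9 of 9 tested, at 2945 to 3328 RPKM after L635 against 4767 to 12430 RPKM after DMP-777 in sum, and Gsdmc lay at the floor. Macrophage markers summed to 1415 to 2780 RPKM after L635 and 1629 to 2848 RPKM after DMP-777, with 14 of 14 tested, 9 of them lower, and none of them at the floor. Their sum was lowest in L635 replicate 3 and highest in DMP-777 replicate 3. Chief cell markers were lower for 4 of 5 tested and summed to 586 to 670 RPKM after L635 and 600 to 1009 RPKM after DMP-777. Eosinophil markers were lower for 2 of 7, with Epx at the floor, and summed to 108 to 474 RPKM after L635 and 132 to 315 RPKM after DMP-777. Over all tested genes 49.8% were lower, and 75.2% of those with a mean of at least 20 RPKM. The shares of lower markers were 87.5% for parietal, 77.8% for general epithelial and 100% for surface mucous cells. They were 64.3% for macrophage, 80.0% for chief cell and 28.6% for eosinophil markers.

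With the parietal cell level of each library as a covariate, the median of the respiratory chain genes was -0.29, and 10 of them and 2.39% of all tested genes were lower at an unadjusted limma p below 0.05. With the general epithelial level, the median was -0.30, and 7 of them and 1.68% of all tested genes were lower. No other marker list was used as a covariate, also not that of surface mucous cells, whose sums did not overlap between the groups. Marker levels can differ with the treatment, so these fits cannot fully tell the marker level and the treatment apart.

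**Figure D3:**
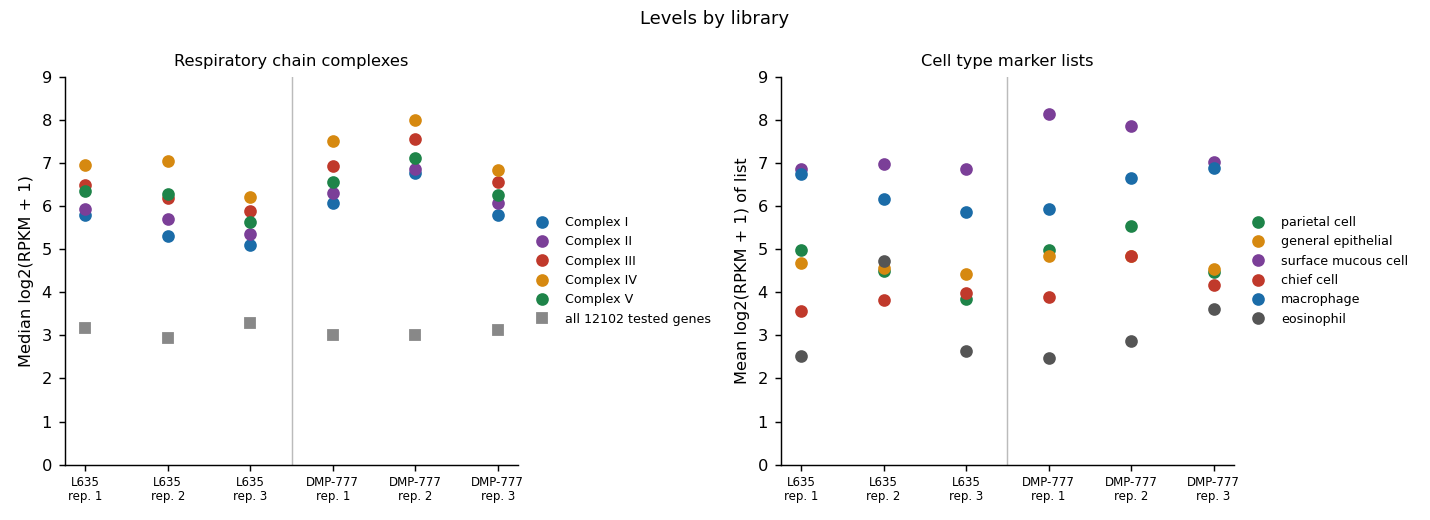
Left, median log2(RPKM + 1) of each complex and of all 12102 tested genes in each library; right, mean log2(RPKM + 1) of each list of cell type markers. The complexes, the parietal cell markers and the general epithelial markers are highest in DMP-777 replicate 2 and lowest in L635 replicate 3. The median of all tested genes lies between 2.93 and 3.30.

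Promoters of these genes were also searched for motifs. Whether a motif goes with the level or the log2 fold change of a gene was not tested. RefSeq promoters of 300 bases, 250 before and 50 after the transcription start, were matched by identifier or symbol for 76 of the 94 genes in build GRCm38.p6. Each was searched on both strands for 5 motifs of factors known from nuclear genes of the respiratory chain. The NRF1 motif, the first run of capitals in the Cox6a1 promoter below, was in 7 of 76 promoters, or 9.21%, against 2.30% of the promoters of tested genes and 1.07% of all promoters. A shorter NRF1 variant, TGCGCATGC, which can overlap it, was in 7.89%, against 3.45% of tested and 1.72% of all. The ETS motif CCGGAAG was in 17, or 22.4%, against 20.3% of tested and 9.93% of all. The YY1 motif, in capitals in the Ndufs6 promoter, was in 6, or 7.89%, against 2.45% and 0.995%, and the cyclic AMP response element TGACGTCA was in 5, or 6.58%, against 3.43% and 2.03%. Any of the 5 was in 43.4% of the members' promoters, against 27.7% of those of tested genes and 13.9% of all. A match is a run of letters and does not show that a factor binds there.

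The following 4 promoters were chosen because each holds at least 1 match, and capitals mark every match. Cox6a1 encodes a subunit of complex IV and holds an NRF1 and an ETS match, at chr5:115348909-115349208. Cox6b1, also of complex IV, holds an ETS match, at chr7:30626065-30626364. Uqcrfs1, which encodes the Rieske subunit of complex III, holds a cyclic AMP response element, at chr13:30545267-30545566. Ndufs6, an accessory subunit of complex I, holds a YY1 match, at chr13:73328433-73328732. All 4 lie on the minus strand and are written 5′ to 3′ along the gene.
Cox6a1: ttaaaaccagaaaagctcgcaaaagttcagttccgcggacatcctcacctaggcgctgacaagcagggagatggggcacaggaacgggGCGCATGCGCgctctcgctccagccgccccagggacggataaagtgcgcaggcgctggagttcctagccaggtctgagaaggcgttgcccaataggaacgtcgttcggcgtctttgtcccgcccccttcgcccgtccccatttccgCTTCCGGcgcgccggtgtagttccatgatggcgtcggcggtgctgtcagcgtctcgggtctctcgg
Cox6b1: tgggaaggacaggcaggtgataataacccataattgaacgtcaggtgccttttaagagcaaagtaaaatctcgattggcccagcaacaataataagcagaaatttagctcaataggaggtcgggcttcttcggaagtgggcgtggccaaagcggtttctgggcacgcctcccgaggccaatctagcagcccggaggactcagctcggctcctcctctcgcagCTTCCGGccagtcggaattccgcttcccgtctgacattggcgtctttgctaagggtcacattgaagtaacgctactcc
Uqcrfs1: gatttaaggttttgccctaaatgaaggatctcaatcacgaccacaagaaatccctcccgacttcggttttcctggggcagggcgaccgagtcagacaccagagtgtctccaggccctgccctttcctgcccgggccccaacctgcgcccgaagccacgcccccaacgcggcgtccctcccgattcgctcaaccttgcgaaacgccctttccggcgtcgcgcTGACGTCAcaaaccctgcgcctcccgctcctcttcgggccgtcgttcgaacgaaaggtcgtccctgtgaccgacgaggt
Ndufs6: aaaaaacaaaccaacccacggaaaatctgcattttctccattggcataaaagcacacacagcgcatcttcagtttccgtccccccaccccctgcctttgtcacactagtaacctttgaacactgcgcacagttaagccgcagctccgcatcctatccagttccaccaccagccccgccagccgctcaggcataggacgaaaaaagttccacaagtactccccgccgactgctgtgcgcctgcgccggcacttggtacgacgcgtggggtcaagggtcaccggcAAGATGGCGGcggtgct

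Complex I, which oxidises NADH, had 36 subunits in the test, with a median log2 fold change of -0.86. It had 35 subunits below 0 (32 with quantile normalization), 20 lower at an unadjusted limma p below 0.05 and 18 whose L635 libraries all lay below the DMP-777 libraries. The 29 accessory subunits, which surround the catalytic core, had a median of -0.86, and the 7 core subunits, which carry the flavin and iron-sulfur clusters, had a median of -0.54. Without L635 replicate 3 and DMP-777 replicate 2, 6 of the 36 were lower at that threshold.

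Ndufc2 is an accessory subunit of the membrane arm, on chromosome 7 from 97400003 to 97407802 in GRCm38. Its level was 76.6, 58.7 and 49.5 RPKM after L635, against 169, 205 and 132 RPKM after DMP-777. The groups were well apart, with means of 61.6 ± 13.8 after L635 and 168 ± 36.3 RPKM after DMP-777 (SD, n = 3 each). Its log2 fold change was -1.44 ± 0.31 (SE), with an adjusted p of 0.406 in limma, and without the pair of libraries it was -1.14. Ndufa5, an accessory subunit of the peripheral arm, was at 30.6, 29.9 and 27.5 RPKM after L635, against 67.1, 101 and 51.5 RPKM after DMP-777. The 3 L635 libraries differed by less than any 2 of the DMP-777 libraries, and its log2 fold change was -1.24 ± 0.31 (adjusted p = 0.406, limma). Ndufc1, the partner of Ndufc2 in the membrane arm, was at 35.5, 27.6 and 13.1 RPKM after L635, against 64.2, 110 and 50.7 RPKM after DMP-777. It had the most negative log2 fold change among complex I subunits, -1.56 ± 0.40 (adjusted p = 0.406, limma), and its groups did not overlap.

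Among the core subunits, Ndufv2 and Ndufs3 had groups that did not overlap. Ndufv2, which carries an iron-sulfur cluster of the NADH-binding module, was at 41.4, 34.0 and 26.4 RPKM after L635, against 64.1, 106 and 55.3 RPKM after DMP-777. Ndufs3 was at 37.0, 25.6 and 25.8 RPKM after L635, against 48.8, 74.7 and 43.7 RPKM after DMP-777. Their log2 fold changes were -1.09 and -0.88. Ndufs1, the largest core subunit with several iron-sulfur clusters, was at 31.1, 22.4 and 30.7 RPKM after L635, against 19.8, 36.9 and 24.4 RPKM after DMP-777. The L635 values lay inside the range of the DMP-777 values, and the estimate was 0.09 ± 0.32 on the log2 scale, its 95% interval running from -0.62 to 0.79. Ndufv1, which binds NADH and the flavin, overlapped as well, at 28.2, 19.99 and 24.7 RPKM after L635 against 21.4, 41.4 and 30.0 RPKM after DMP-777.

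The other accessory subunits with groups apart were Ndufa1, Ndufa3, Ndufa7, Ndufa10, Ndufa11, Ndufa12, Ndufa13, Ndufb2, Ndufb3, Ndufb5, Ndufb6, Ndufs4 and Ndufs5. Their log2 fold changes reached from -0.50 for Ndufb5 to -1.36 for Ndufb6. Ndufs4, known from mouse models of mitochondrial disease, was at 54.0, 48.2 and 39.0 RPKM after L635, against 77.2, 107 and 57.9 RPKM after DMP-777. Ndufa13, also known as GRIM-19, was at 53.7, 45.6 and 26.4 RPKM after L635, against 74.8, 119 and 53.9 RPKM after DMP-777, so that L635 replicate 1 and DMP-777 replicate 3 nearly met. Ndufb9 had the highest mean level of complex I and overlapping groups, at 172, 139 and 86.0 RPKM after L635 against 155, 228 and 110 RPKM after DMP-777. Its log2 fold change was -0.30 ± 0.37.

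The 6 Ndufaf genes encode factors that help assemble complex I and are not part of it. Their median log2 fold change was -0.40, and they split into a pair with groups apart and 4 with overlapping groups. The pair is 33.3% of them, against 8.75% of all tested genes apart with L635 the lower. Ndufaf3, on chromosome 9 from 108565866 to 108567342, was at 18.6, 8.57 and 13.5 RPKM after L635, against 46.9, 64.8 and 41.4 RPKM after DMP-777. The highest L635 library was below the lowest DMP-777 library by a wide margin, with means of 13.5 ± 5.01 after L635 and 51.0 ± 12.3 RPKM after DMP-777 (SD, n = 3 each). The log2 fold change was -1.87 ± 0.34, with an adjusted p of 0.308 in limma, the lowest of the respiratory chain genes, and -1.72 without the pair of libraries. Ndufaf1, a member of the complex that builds the membrane arm, was at 9.15, 5.62 and 6.46 RPKM after L635, against 20.97, 14.6 and 14.7 RPKM after DMP-777. Here DMP-777 replicate 1 was highest, and the log2 fold change was -1.14 ± 0.37 (adjusted p = 0.414, limma).

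Ndufaf4, a partner of Ndufaf3 in assembly of the peripheral arm, was at 8.66, 10.8 and 16.0 RPKM after L635, against 11.4, 14.9 and 8.86 RPKM after DMP-777. Its groups overlapped, and it had its highest value in L635 replicate 3, where 68 of the 87 tested genes were lowest. The estimate was close to 0, and its 95% interval ran from -0.83 to 0.82. Ndufaf2, Ndufaf5 and Ndufaf6 had log2 fold changes of -0.32, -0.48 and -0.08, each with an interval that included 0. Ndufaf6 was at the floor in DMP-777 replicate 3. The 6 complex I assembly factors without the Ndufaf name had a median of -0.28, and 4 of them were below 0. Timmdc1 and Nubpl had the smallest p-values of these, with log2 fold changes of -0.63 and -0.59.

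Complex II, succinate dehydrogenase, also belongs to the citric acid cycle, and all 4 subunits had negative log2 fold changes with a median of -0.85, except that Sdha was at 0.03 with quantile normalization. Sdhc, a membrane anchor, was at 47.7, 47.5 and 31.2 RPKM after L635, against 83.5, 121 and 57.1 RPKM after DMP-777. Its groups were apart, and its log2 fold change was -0.99 ± 0.34 (adjusted p = 0.415, limma). Sdhb, the iron-sulfur subunit, was at 48.4, 30.4 and 27.7 RPKM after L635, against 53.5, 109 and 47.3 RPKM after DMP-777. Sdhd, the other anchor, was at 148, 115 and 77.7 RPKM after L635, against 191, 270 and 138 RPKM after DMP-777. For both, L635 replicate 1 was above DMP-777 replicate 3, and the log2 fold changes were -0.90 and -0.81. Sdha, the flavoprotein that oxidises succinate, was at 76.0, 55.7 and 51.8 RPKM after L635, against 72.2, 97.3 and 76.4 RPKM after DMP-777. The estimate was -0.42 ± 0.29 on the log2 scale, and its 95% interval ran from -1.06 to 0.21. Of the 4 subunits, 3 were lower at an unadjusted limma p of 0.05, and 0 were without the pair of libraries. With every library, 19.4% of all tested genes with a mean of at least 20 RPKM were lower at that p.

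Complex III, the cytochrome bc1 complex, had a median log2 fold change of -0.83 over 9 genes, of which all were negative (8 with quantile normalization or equal summed RPKM, Cyc1 being positive), 6 were lower at an unadjusted limma p below 0.05 and 4 had groups apart. That is 66.7% lower and 44.4% apart, against 19.4% and 23.2% of all tested genes with a mean of at least 20 RPKM. Uqcrfs1, whose promoter is printed above, was at 91.0, 72.5 and 50.7 RPKM after L635, against 142, 235 and 92.4 RPKM after DMP-777. L635 replicate 1 and DMP-777 replicate 3 were almost equal, and the log2 fold change was -1.06 ± 0.38 (adjusted p = 0.422, limma). Uqcrq, a small subunit, was at 36.7, 31.1 and 17.6 RPKM after L635, against 52.7, 98.4 and 42.5 RPKM after DMP-777. Uqcr11, with the smallest p-value of the complex, was at 88.8, 52.6 and 44.3 RPKM after L635, against 121, 186 and 88.7 RPKM after DMP-777, and L635 replicate 1 was barely above DMP-777 replicate 3. Their log2 fold changes were -1.12 and -1.08. Uqcrb and the core protein Uqcrc2 also had groups apart, at -0.89 and -0.73. Uqcr10 had the highest mean level of the complex, at 168, 118 and 80.9 RPKM after L635 against 228, 287 and 138 RPKM after DMP-777.

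Cyc1, the cytochrome c1 that hands electrons on from complex III, was at 158, 167 and 96.2 RPKM after L635, against 145, 225 and 131 RPKM after DMP-777. Its groups overlapped, and its log2 fold change was -0.25 ± 0.35. Cycs, cytochrome c itself, was at 58.7, 73.4 and 35.8 RPKM after L635, against 103, 134 and 68.0 RPKM after DMP-777. L635 replicate 2 was above DMP-777 replicate 3, and the log2 fold change was -0.86 ± 0.35 (adjusted p = 0.451, limma). Without the pair of libraries, 0 of the 9 complex III genes were lower at that threshold.

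Complex IV, cytochrome c oxidase, had 13 of its 19 genes in the test, all with negative log2 fold changes, and with a median of -0.71 that was -0.27 with quantile normalization. Only 3 were lower at an unadjusted limma p below 0.05, and 2 had groups apart. These were 23.1% and 15.4%, against 19.4% and 23.2% of all tested genes with a mean of at least 20 RPKM. Cox6b1, which faces the intermembrane space, had the highest mean level of all 87 genes, at 233, 210 and 98.4 RPKM after L635 against 386, 536 and 261 RPKM after DMP-777. Its groups were apart, and the log2 fold change was -1.16 ± 0.42 (adjusted p = 0.425, limma), or -0.52 without the pair of libraries. Cox5a was at 174, 170 and 96.5 RPKM after L635, against 244, 364 and 181 RPKM after DMP-777, with a log2 fold change of -0.83. Cox7a1, the isoform known from heart and skeletal muscle, was at 47.9, 54.7 and 9.22 RPKM after L635, against 98.2, 254 and 53.5 RPKM after DMP-777. Its values spread widely in both groups, and L635 replicate 2 was just above DMP-777 replicate 3. The log2 fold change of -1.88 ± 0.63 (adjusted p = 0.415, limma) was the most negative of all 87 genes, and it was -0.49 without the pair of libraries.

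The remaining named genes of complex IV overlapped between the groups. Cox4i1, the general isoform of subunit 4, was at 104, 101 and 50.7 RPKM after L635, against 126, 215 and 101 RPKM after DMP-777. Cox8a, Cox7a2, Cox6a1 and Ndufa4, a subunit of complex IV in spite of its name, had log2 fold changes of -0.75, -0.71, -0.65 and -0.61. Cox7a2l had a log2 fold change of -0.43 ± 0.32. Cox6b2, known from testis, was at 8.72, 1.00 and 2.02 RPKM after L635, against 1.00, 10.55 and 6.24 RPKM after DMP-777, and was at the floor in 1 library of each group.

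The isoforms Cox4i2, Cox6a2, Cox8c and Ndufa4l2, were at the floor in all 6 libraries. Cox7b2, Cox8b and Atp5l-ps1 were above it only in DMP-777 replicate 3, at 6.88, 11.8 and 1.22 RPKM. These 7 genes were not tested.

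Complex V, the ATP synthase, had a median log2 fold change of -0.69 over 15 genes, with all 15 negative (12 with quantile normalization, where Atp5a1, Atp5b and Atp5g3 were positive), 5 lower at an unadjusted limma p below 0.05 and 4 with groups apart. That is 33.3% lower and 26.7% apart. Among all tested genes with a mean of at least 20 RPKM it was 19.4% and 23.2%, so the share apart was near that background. The 5 genes of the catalytic F1 head had a median of -0.63 and the 10 of the stator and membrane part one of -0.72. Atp5l, a membrane subunit with the highest mean level of the complex, was at 214, 230 and 122 RPKM after L635, against 365, 496 and 225 RPKM after DMP-777. L635 replicate 2 was just above DMP-777 replicate 3, and its log2 fold change was -0.91 ± 0.40 (adjusted p = 0.479, limma). The catalytic subunits Atp5a1 and Atp5b had overlapping groups and log2 fold changes of -0.42 and -0.40. Atp5j2 and Atp5f1, of the membrane part and the stator, had groups apart at -0.69 and -0.63, and Atp5k, another membrane subunit, was at -0.74. Without the pair of libraries, 0 of the 15 were lower at that threshold.

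Atp5g1, Atp5g2 and Atp5g3 encode the same mature c subunit of the proton-driven ring. Atp5g2 was at 151, 118 and 73.2 RPKM after L635, against 225, 324 and 190 RPKM after DMP-777. Atp5g3 was at 80.9, 93.4 and 57.4 RPKM after L635, against 94.3, 139 and 76.0 RPKM after DMP-777, and Atp5g1 at 29.7, 28.0 and 13.5 RPKM after L635, against 36.5, 57.8 and 30.5 RPKM after DMP-777. The groups were apart for Atp5g2 and Atp5g1 and overlapped for Atp5g3. The log2 fold changes were -1.13 for Atp5g2, -0.81 for Atp5g1 and -0.40 for Atp5g3. Atp5g2 was the highest of the 3 in every library.

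Ratios within a library do not depend on a single scaling factor per library, but quantile normalization can change them. With it, the log2 fold change of Ndufs1 went from 0.09 to 0.30 and that of Ndufc2 from -1.44 to -0.96. The ratio of Atp5g3 to Atp5g2 was 0.536, 0.792 and 0.784 after L635, against 0.419, 0.430 and 0.400 after DMP-777, with means of 0.704 ± 0.145 after L635 and 0.416 ± 0.0152 after DMP-777 (SD, n = 3 each). Atp5g1 to Atp5g2 was also higher after L635 in every library, at 0.206 ± 0.0275 after L635 and 0.167 ± 0.00975 after DMP-777, and Ndufs1 to Ndufc2 was at 0.470 ± 0.132 after L635 and 0.161 ± 0.0377 after DMP-777. Cox7a1 to Cox7a2 was lower after L635, at 0.311 ± 0.161 after L635 and 0.674 ± 0.293 after DMP-777. For each of these 4 ratios the groups did not overlap, which gives an exact two-sided permutation p of 0.1, the smallest that 3 against 3 libraries allow. Sdha to Sdhc and Cox6b2 to Cox6b1 overlapped, with exact permutation p-values of 0.2 and 0.6. All 6 ratios computed are given here. They were chosen after the values had been seen, and adjusted over the 6 the first 4 had an exact permutation p of 0.15. None of these permutation p-values can therefore test a difference apart from that choice. Cox7a1 had the most negative log2 fold change of the tested respiratory chain genes, and Atp5g2 had the smallest limma p-value of complex V. Ndufs1 was the only tested respiratory chain gene with a positive log2 fold change, and Ndufc2 had the smallest limma p-value of complex I. Their ratio therefore set opposite ends of the same data against each other, and its permutation p-value cannot test a difference apart from that choice. Genes within a ratio can differ in exonic length, as with 8086 nucleotides for Ndufs1 and 754 for Ndufc2. With the length and GC trends described below removed, log2 fold changes were -0.86 for Atp5g1, -0.17 for Atp5g3 and -0.90 for Atp5g2. They were then -0.12 for Ndufs1 and -1.03 for Ndufc2, and -1.57 for Cox7a1 and -0.32 for Cox7a2.

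**Figure D4:**
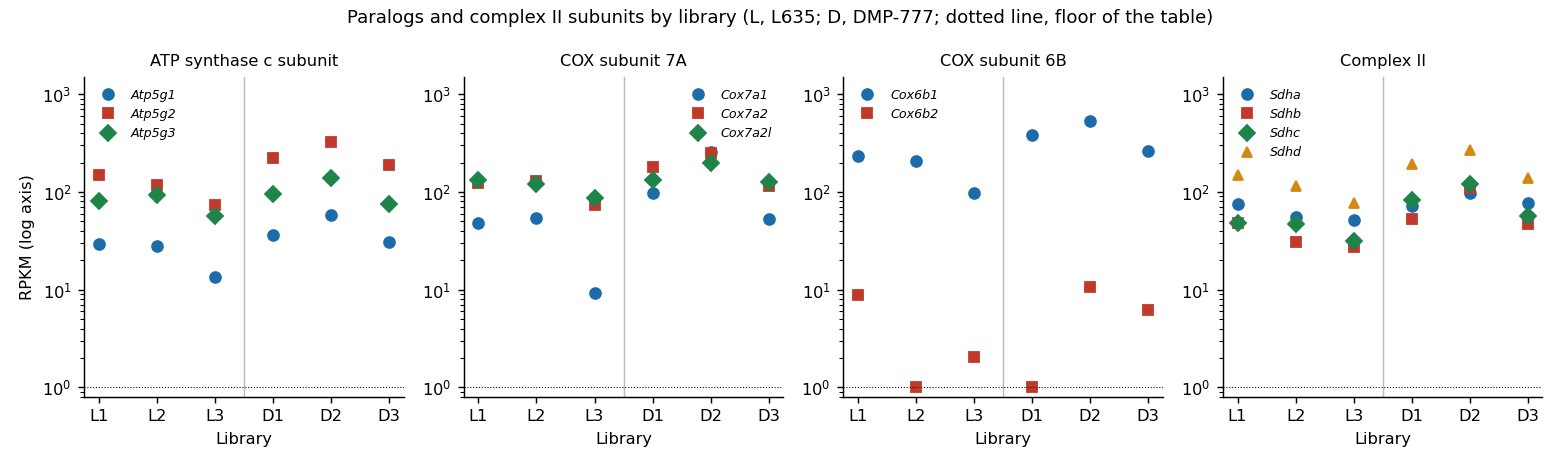
RPKM on a log axis of the c subunit genes of the ATP synthase, the subunit 7A and 6B genes of complex IV and the subunits of complex II, in the 3 L635 libraries (L1 to L3) and the 3 DMP-777 libraries (D1 to D3). Atp5g2 stands above Atp5g3 in all 6 libraries, by less after L635, and Cox7a1 is at 9.22 RPKM in L3.

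Respiratory chain genes are short, with a median exonic length of 1789 nucleotides against 4370 over all tested genes, and the log2 fold change followed length across the whole table. In the shortest of 4 length classes, below 1001 nucleotides, the median was -0.91 for 18 respiratory chain genes and -0.53 for all 374 tested. In the next, up to 2 kilobases, it was -0.76 for 34 respiratory chain genes and -0.37 for all 1372 tested. Up to 4000 nucleotides, it was -0.69 for 24 and -0.16 for all 3636, and above 4000 it was -0.54 for 11 and 0.15 for all 6620. Exonic length can far exceed that of a transcript. Of the genes above 4000, Atp5l had 6443 exonic nucleotides but a transcript of 544, and Ndufb7 had 4522 and 623. Ndufb2 and Atp5g1 had transcripts of 4371 and 4715. Classes by transcript length were not tested. Spearman's rho between length and log2 fold change was 0.378 over the 87 genes and 0.372 over 12002 genes with a length. With a trend on length and GC content removed from each library, the members' median was -0.51, and 20 of them were lower at an unadjusted limma p below 0.05, as were 5.69% of all genes in that fit.

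**Figure D5:**
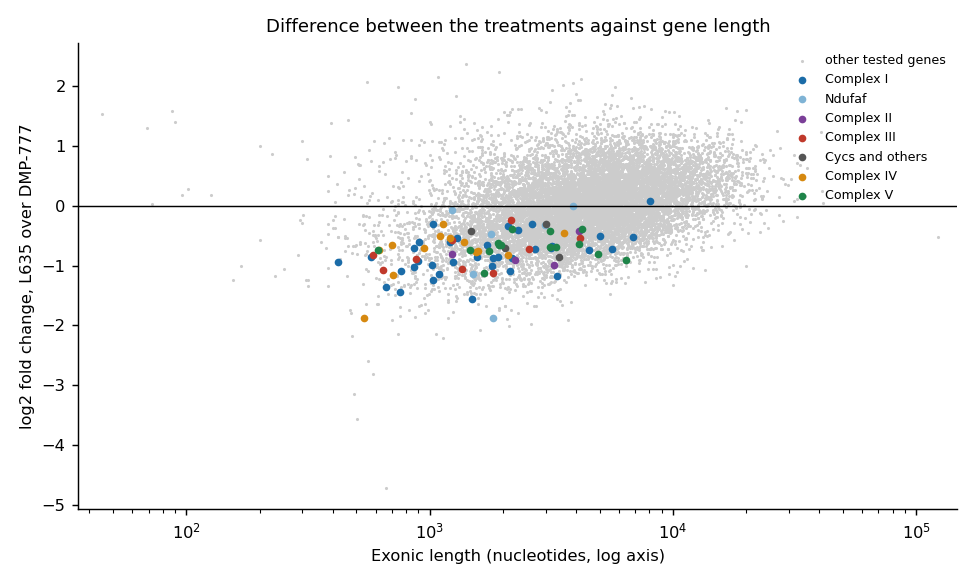
Log2 fold change of L635 over DMP-777 against exonic length in nucleotides on a log axis, for all tested genes in grey and for the respiratory chain genes coloured by complex. Genes of short exonic length lie lower in the whole table. In each of the 4 classes of exonic length, which is not transcript length, the median of the respiratory chain genes is lower than that of all tested genes.

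The respiratory chain genes are also abundant. Of the 87, 74 had a mean of at least 20 RPKM and a median log2 fold change of -0.75, with 51.4% lower at an unadjusted limma p below 0.05. All 2685 tested genes at that level had a median of -0.35 and 19.4% lower. Many of these genes have close copies elsewhere in the genome. Of the 94, 40 shared at least 1 stretch of 50 bases with a transcript of another gene, and Atp5l and Atp5l-ps1 shared 68.5% and 55.1% of theirs, so their levels are uncertain. The 48 tested genes with no such stretch had a median of -0.72, and the 39 with one had -0.74.

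Other mitochondrial genes were read from the same test, in which 49.8% of all genes were negative and 6.33% lower at an unadjusted limma p below 0.05, or 75.2% and 19.4% of those with a mean of at least 20 RPKM. Of 17 enzymes of the citric acid cycle and the pyruvate dehydrogenase complex, 16 had a negative log2 fold change, 3 were lower at that threshold and the median was -0.47. Pdhb, of pyruvate dehydrogenase, and Cs, citrate synthase, were at -0.81 and -0.80. Of 15 mitochondrial carriers and related genes, 12 were negative and 4 were lower at that threshold, with a median of -0.47. Vdac1, an outer membrane channel, was at 83.3, 72.8 and 53.3 RPKM after L635, against 127, 184 and 100 RPKM after DMP-777, and Etfb, which delivers electrons from fatty acid oxidation, had a log2 fold change of -0.93. Of 23 assembly factors of complexes II to V, 19 were negative and 5 were lower, with a median of -0.40. Among them Fam36a, a complex IV assembly factor also known as Cox20, was at 17.0, 15.5 and 16.3 RPKM after L635, against 48.9, 48.5 and 28.1 RPKM after DMP-777, and Coa5 was at 64.6, 67.6 and 37.7 RPKM after L635, against 134, 162 and 105 RPKM after DMP-777. Both had groups apart and a limma adjusted p of 0.406.

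Of 13 regulators of mitochondrial gene expression, 5 had a negative and 8 a positive log2 fold change, with a median of 0.06 and 0 past an unadjusted limma p of 0.05. Nrf1, whose product binds the NRF1 motif, was at 3.45, 6.04 and 5.60 RPKM after L635, against 3.36, 2.40 and 2.46 RPKM after DMP-777. These groups did not overlap, with L635 the higher, and the log2 fold change was 0.67 ± 0.43 (adjusted p = 0.615, limma). Esrra, another of the 13, was apart in the other direction. It was at 5.11, 3.53 and 3.46 RPKM after L635, against 5.26, 7.62 and 5.78 RPKM after DMP-777. Over all tested genes, 7.25% were apart with L635 the higher and 8.75% with L635 the lower. Hif1a, the oxygen-regulated factor, was at 13.0, 46.9 and 20.5 RPKM after L635, against 9.85, 7.10 and 24.0 RPKM after DMP-777, with overlapping groups. The 13 subunits encoded in mitochondrial DNA were not analysed here.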

How the data were processed

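Libraries of RNA from F4/80-positive cells of mouse stomach corpus were amplified with a NuGEN Ovation kit and sequenced as single-end reads, per the labels' protocols. FastQC, TopHat 1.4, SAMtools and mm9 appear in the submitters' processing notes, with no role given, and the sources used here do not name the quantification tool. The deposited values are called only normalized in the header. They were recognised as RPKM because value times exonic length falls on multiples of a step per library, although that signal was weak. The step gave about 4300000 to 20900000 reads per library, and 11459 to 12955 genes were above the floor of 1. Whole reads were not recovered, so no count test was run. Gene positions match GENCODE M21 on GRCm38: of 22268 identifiers, 99.8% overlap the same gene.

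Groups came from the titles. The comparison used limma 3.58.1 in R 4.3.3 on log2(RPKM + 1) of the deposited RPKM values, with a mean-variance trend, two-sided, adjusted by Benjamini-Hochberg over 12102 genes above the floor in at least 3 libraries; folds of low genes are understated. Shares of 50-base windows, promoter searches and ratios used Python 3.11.15 and pandas 2.3.3. The test was checked on simulated data. It recovered 3.43% of genes with a simulated log2 change of 1, 52.5% with a change of 2 and 85.5% with a change of 3. It also called 0.0286% of genes simulated without a change. Noise was drawn independently for each gene, and changes were placed only in genes above the median level. Most respiratory chain genes shared their highest and lowest library, so these rates may not hold for the data. No columns were left out: 0 were unused.

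Members, lists, markers and alternatives were chosen with earlier results of these data known. Named genes were, per complex, the 3 smallest p-values and the highest level; all complex II subunits, Cyc1 and Cycs; paralog sets; positive log2 fold changes; groups that did not overlap; genes at the floor; and per list the 2 smallest p-values. Ndufv1, Atp5a1, Atp5b and any other gene outside this rule were chosen after their values were seen, as were the length classes, the level of 20 RPKM, the motifs, the window search, the ratios, the printed promoters, and the alternatives without a pair of libraries and with equal summed RPKM.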

Additional observations from a re-analysis of the deposited data

How the results depend on the processing

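Depth limits genes near the floor most, and the design of 3 against 3 libraries left 95% intervals of a median half-width of 0.933 on the log2 scale over all tested genes. No paired analysis was possible because the numbers in the titles are not shared between the groups. Under the alternatives run, the respiratory chain genes with a negative log2 fold change numbered 76 to 87 of 87 (89 of 94 without the filter, 85 of 86 with a higher filter), and 0 passed an adjusted p of 0.05 in limma. The count lower at an unadjusted limma p below 0.05, 40 beside 6.33% of all tested genes, became 24 beside 3.23% without the filter, 21 beside 4.88% with quantile normalization, 20 beside 5.69% with length and GC trends removed, 7 beside 1.68% with the general epithelial level and 10 beside 2.39% with the parietal cell level as a covariate, 21 beside 2.91% with equal summed RPKM, and 7 beside 2.14% without L635 replicate 3 and DMP-777 replicate 2 together. Leaving out 1 library at a time it ranged from 10 beside 3.48% (without DMP-777 replicate 2) to 57 beside 7.53% (without DMP-777 replicate 3), with 13 beside 3.82% without L635 replicate 3. The median of -0.73 became -0.37 with quantile normalization, -0.30 with the epithelial level, -0.29 with the parietal level and -0.27 without both libraries, and it ranged from -0.48 to -1.003 with 1 library left out. With equal summed RPKM the median of all tested genes was 0.24 and that of the respiratory chain genes -0.46; with 766 lower and 457 higher genes at an unadjusted p below 0.05 in the whole table as reported, this scaling gave 352 lower and 1043 higher, and median centring 953 lower and 343 higher. Single genes near 0 changed sign. With quantile normalization, Atp5g3 was at 0.076, Cox7a2l at 0.10, Cyc1 at 0.27, Ndufb9 at 0.23 and Sdha at 0.031. With length and GC trends removed, Ndufb9 was at 0.057 and Ndufs1 at -0.12, and with median centring Ndufs1 was at -0.0027. With the epithelial level Cyc1 was at 0.11 and Ndufb9 at 0.24; with the parietal level Cox6b2 was at 0.090, Cyc1 at 0.14 and Ndufb9 at 0.22. With 1 library left out, Ndufs1 ranged from -0.11 (without DMP-777 replicate 1) to 0.33, Cox6b2 from -1.23 to 0.030 (without DMP-777 replicate 2) and Cyc1 from -0.40 to 0.0060 (without L635 replicate 3), while the lowest values of Atp5g3, Ndufaf5 and Ndufb9 were -0.59, -0.82 and -0.56. Without both libraries, Atp5g3 was at 0.038, Cox6b2 at 0.21, Cyc1 at 0.24, Ndufaf5 at 0.063 and Ndufb9 at 0.24, and with equal summed RPKM Cyc1 was at 0.040. The cause of these changes was not tested.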
